A study of Mus musculus with 6 samples.

Results

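The mRNAs of mitochondrial ribosomal proteins were examined in fetal hypothalamic NSC/NPCs. The members were all genes of the deposited table whose symbol starts with Mrpl or Mrps followed by a digit, which gave 78 of 22048 genes, 49 Mrpl genes of the large subunit and 29 Mrps genes of the small subunit. NSC/NPCs are neural stem/progenitor cells, grown here as neurospheres, which are floating clusters raised from dissociated cells in a medium with growth factors. RNA was taken at first passage from cells of male C57BL/6 fetuses isolated at E14.5. In the HE group (3 samples) dams aged 8 weeks had received estradiol valerate, an ester of estradiol, through gavage, with 100 μg/kg/d given on E5.5 through E11.5, and in the NC group (3 samples) the corn oil solvent over the same days. The labels list the NC samples as untreated. Each sample held cells of 2 mice, so a value is that of a pool, and cells in culture are a model of the hypothalamus only as far as first-passage neurospheres resemble it. No separate litter was named for each sample, so the p-values measure only the spread between these samples.

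Mitochondria carry their own ribosome, which translates the few proteins encoded by mitochondrial DNA, all of them subunits of the oxidative phosphorylation complexes. The small subunit reads the mRNA and the large subunit joins the amino acids. All of the proteins of this ribosome are encoded in the nucleus, translated in the cytosol and imported. Some descend from ribosomal proteins of the bacterial ancestor and others are found in mitochondria alone. Neural stem cells rely strongly on glycolysis, and mitochondrial biogenesis is known to accompany their differentiation to neurons.

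The nuclear promoters of such genes often hold binding sequences for NRF1, a factor of mitochondrial biogenesis, for GABPA, an ETS factor also known as NRF-2, or for YY1, a zinc finger factor. RefSeq promoter windows on GRCm38.p6, the same assembly as mm10, were searched from 250 bases before to 50 after each start, on both strands. There were 75 windows for 69 of the 78 members. The following stretches end just before the annotated start and lie in no annotated gene. They were chosen after the values and matches had been seen, to show the member with the smallest p-value, which has no match of these 3 motifs before its start, a member with an NRF1 match, a member with an ETS match, and a stretch that a large and a small subunit gene share. Capitals mark the match to the NRF1 motif or to CCGGAAGT for ETS, and each sequence is written 5′ to 3′ toward the gene's start.
Mrpl42: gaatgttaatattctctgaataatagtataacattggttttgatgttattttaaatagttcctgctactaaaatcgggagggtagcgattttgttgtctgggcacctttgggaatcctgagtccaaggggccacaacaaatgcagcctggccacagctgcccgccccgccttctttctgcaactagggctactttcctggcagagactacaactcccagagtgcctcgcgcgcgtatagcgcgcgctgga
Mrpl32: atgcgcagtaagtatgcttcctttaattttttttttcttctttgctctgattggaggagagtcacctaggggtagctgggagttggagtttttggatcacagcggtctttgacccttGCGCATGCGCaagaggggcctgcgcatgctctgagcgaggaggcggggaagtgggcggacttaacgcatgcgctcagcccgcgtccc
Mrpl3: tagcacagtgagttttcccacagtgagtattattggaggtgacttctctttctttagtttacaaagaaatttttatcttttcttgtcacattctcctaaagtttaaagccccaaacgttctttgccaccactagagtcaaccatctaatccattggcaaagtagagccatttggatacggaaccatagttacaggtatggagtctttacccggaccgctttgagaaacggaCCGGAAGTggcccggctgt
Mrpl46 and Mrps11: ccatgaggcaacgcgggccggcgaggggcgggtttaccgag
The Mrpl42 stretch is chr10:95501950-95502199 on the minus strand, and its window has a YY1 match 27 bases after the start, outside the stretch. The Mrpl32 stretch is chr13:14613038-14613241 on the minus strand, shortened to 204 bases where the neighbouring gene Psma2, a proteasome subunit, begins, and its match starts 87 bases before the gene. The Mrpl3 stretch is chr9:105053018-105053267 on the plus strand, with a match 19 bases before the start. The last stretch is the whole gap of 41 bases at chr7:78783090-78783130 on the plus strand, between Mrpl46 on one side and Mrps11 on the other. In this pair, Mrpl46 was at 15.97, 19.4 and 18.1 RPKM (reads on the gene divided by its length and by the reads of the library) in NC1, NC2 and NC3, and at 22.8, 19.5 and 28.9 RPKM in HE1, HE2 and HE3. Mrps11 was at 12.1, 14.1 and 11.6 RPKM in NC and at 12.2, 14.0 and 21.4 RPKM in HE. Both genes were highest in HE3, the NC and HE values of Mrpl46 did not overlap, and those of Mrps11 did. The log2 fold change was 0.40 and 0.29, and 0.25 and 0.06 without HE3.

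Before the comparison, one library stood apart. HE3 had the fewest reads on genes, 16078675 against 17904879 to 19137059 in the others. Its RPKM values summed to 412361 against 340524 to 367430, since more of its reads lay on short genes, and it was the lowest of the 6 samples in 6197 of the 13952 genes tested and the highest in 3412, more than any other sample in both. The main counts and medians of the members are therefore also given without HE3, as are the fold changes of some named genes. A gene without such a value may have moved as well. Markers fixed for the cell types that neurospheres could hold were checked as sums of RPKM. The 7 neural progenitor markers, among them Sox2, Nes and Vim, summed to 2854 to 3544 in NC and 2801 to 4501 in HE. Of these, Fabp7 alone had a log2 fold change above 0 (0.62, with 2383 RPKM in HE3), while Sox2 was at 209, 209 and 195 RPKM in NC and at 176, 172 and 97.3 RPKM in HE, without overlap (-0.51, adjusted p = 0.260 in limma), and Nes, Pax6, Vim, Hes5 and Sox9 lay between -0.48 and -0.02. Without HE3 the log2 fold change was 0.33 for Fabp7 and -0.23 for Sox2. The 6 microglia markers summed to 0.744 to 1.20 in NC and 2.28 to 7.24 in HE, the 4 endothelial markers to 0.851 to 1.27 and 2.35 to 3.63, and the 6 mesenchymal markers to 21.7 to 71.1 and 61.8 to 141. The microglia sum rose mostly through C1qa, C1qb and Tmem119. Csf1r and Cx3cr1 overlapped between the groups, and Aif1 averaged 0.138 RPKM in NC and 0.123 RPKM in HE. Of the endothelial markers, Tek averaged 0.0633 RPKM in NC and 0.0403 RPKM in HE. The 6 neuron markers summed to 42.0 to 71.0 in NC and 48.0 to 65.6 in HE, the 5 astrocyte markers to 1365 to 1722 and 934 to 1362, and the 6 oligodendrocyte lineage markers to 268 to 295 and 285 to 506. Log2 fold changes were above 0 for 2 of the 6 neuron, 1 of the 5 astrocyte and 2 of the 6 oligodendrocyte lineage markers. The astrocyte marker above 0 was S100b, higher in HE without overlap (0.92, adjusted p = 0.195 in limma). No marker was at 0 in all samples. The part of these cells in the results below was not tested, and in bulk RNA a change in the number of cells of a type and a change in RNA per cell cannot be told apart.

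Most mitochondrial ribosomal protein mRNAs were slightly higher in HE than in NC, and none passed the test. The test was limma on log2(RPKM + 0.1), with Benjamini-Hochberg adjustment over all 13952 genes with enough reads, of which 76 were members (48 Mrpl and 28 Mrps). A gene was called at an adjusted p-value under 0.05 with a log2 fold change of at least 1 either way. Of the members 0 were called, against 0 of all genes (0% called), and voom on the read counts also called 0. The paper does report differentially expressed mRNAs at these cutoffs with DESeq2, a count test not run here. The members' smallest adjusted p was 0.195 in limma, that of all genes 0.148. The log2 fold change was above 0 for 68 of 76 members (89.5%), against 43.8% of all genes tested. Its median was 0.29 (1.22-fold), beside -0.06 for all genes. The range ran from -0.12 for Mrpl24 to 0.64 for Mrpl42, so no member reached the fold cutoff.

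At an unadjusted p under 0.05, 25 of 76 members (32.9%) were higher in HE, against 8.68% of all genes tested. No member was lower at that p, against 11.8% of all genes. With the groups compared by rank, the 3 HE values lay above all 3 NC values in 40 members (52.6%), against 14.8% of all genes, and below them in 0, against 17.9%. For a single gene such a separation of 3 from 3 is the most extreme of the 20 ways to split the samples, and the exact two-sided permutation test cannot go below p = 0.1. Without HE3, HE1 and HE2 lay above all NC values in 42 members (55.3%, against 20.6% of all genes) and below them in 2 (2.63%, against 20.1%). The count of 25 was lower without single control samples as well. It was 6 without NC1, 9 without NC2 and 21 without HE3. Of all genes 4.39%, 4.78% and 9.35% were higher at that p in these fits. Without NC1 or NC2 the share over all genes thus fell too. Without HE3 the members' median was 0.18 on the log2 scale, with all genes at 0.00, and 66 of 76 were above 0. The HE mean exceeded the NC mean by more than the widest gap between NC samples in 53 of 76 members (69.7%). Of all genes tested 21.2% did so. Genes lower in HE by as much were not counted.

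**Figure D1:**
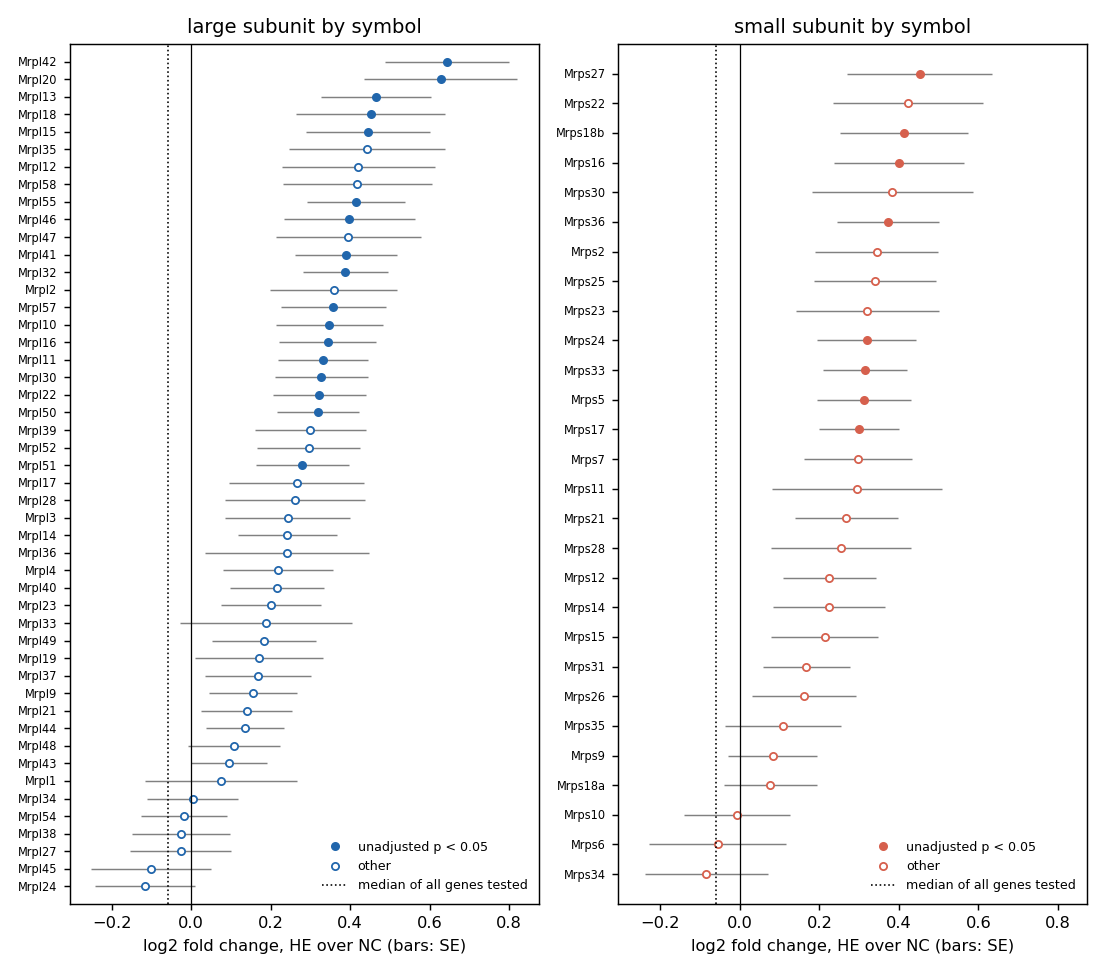
Log2 fold change of HE over NC for each member, ordered within the large (left, 48 Mrpl genes) and small subunit (right, 28 Mrps genes); bars are standard errors, filled points have an unadjusted p under 0.05, and the dotted line is the median of all genes tested. Of the 76 points 68 lie to the right of 0, and the 8 to its left lie within 0.12 of it.

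The median member was higher in each HE sample, by unlike amounts. Relative to each gene's NC mean, the median member was at -0.03 in NC1, -0.03 in NC2 and 0.05 in NC3 on the log2 scale, and at 0.18 in HE1, 0.17 in HE2 and 0.44 in HE3. The 3 HE samples all lay above the 3 NC samples, with HE3 apart from the other two. HE1 exceeded the highest NC value in 53 of 76 members, HE2 in 51 and HE3 in 65, where 32.3%, 31.1% and 31.3% of all genes did. HE3 was the highest of all 6 samples in 53 members and in 24.5% of all genes. Over all genes the median of HE3 was -0.17, of HE1 0.00 and of HE2 -0.001, so that in HE3 the median member and the median gene lay on opposite sides of the NC mean.

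As a share of all reads on genes, all 78 members held 0.316% in NC1 (95% Wilson interval 0.314% to 0.319%), 0.317% in NC2 (0.314% to 0.320%) and 0.333% in NC3 (0.330% to 0.336%). They held 0.367% in HE1 (0.364% to 0.370%), 0.354% in HE2 (0.352% to 0.357%) and 0.435% in HE3 (0.432% to 0.438%). The groups did not overlap in this share, which is computed without dividing by gene length but still moves when reads shift to short genes, and the means were 0.322% ± 0.00944 in NC and 0.385% ± 0.0434 in HE (SD, n = 3 samples each). The intervals cover counting error only. The summed RPKM was 1917 ± 57.2 in NC and 2308 ± 277 in HE.

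**Figure D2:**
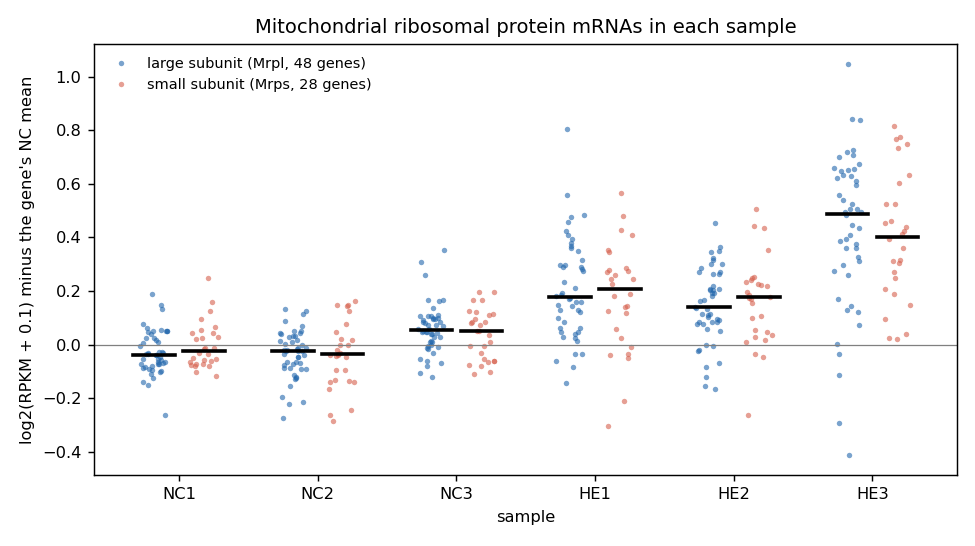
Each point is a member's log2(RPKM + 0.1) in a sample minus its mean over the 3 NC samples, for large (blue) and small subunit genes (red); black bars are medians. The bars lie between -0.04 and 0.06 in NC, between 0.13 and 0.21 in HE1 and HE2, and above 0.40 in HE3.

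Large and small subunit mRNAs had like median differences. The median log2 fold change was 0.27 for the 48 Mrpl genes and 0.30 for the 28 Mrps genes, a difference of -0.02, and it was 0.18 and 0.20 without HE3. The Mrpl minus Mrps difference within a sample lay between -0.04 (HE2) and 0.09 (HE3), a spread wider than this difference of medians. Above 0 were 43 of 48 Mrpl and 25 of 28 Mrps genes. At an unadjusted p under 0.05, 17 Mrpl (35.4%) and 8 Mrps genes (28.6%) were higher, against 8.68% of all genes tested. The HE values lay wholly above the NC values in 28 Mrpl genes (58.3%) and 12 Mrps genes (42.9%), against 14.8% of all genes tested. Members are not replicates, so these shares were not tested against each other.

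The mean level per gene was close in both subunits, while the median level was higher for the large subunit. The mean level of a gene was 25.8 RPKM for the 48 Mrpl and 24.2 RPKM for the 28 Mrps genes in NC, and 31.1 and 29.1 RPKM in HE. The summed RPKM of all 49 Mrpl genes was 1240 ± 44.9 in NC and 1493 ± 166 in HE. That of all 29 Mrps genes was 677 ± 18.4 in NC and 815 ± 110 in HE. The ratio of the sums was 1.85, 1.77 and 1.88 in NC1, NC2 and NC3, and 1.84, 1.88 and 1.79 in HE1, HE2 and HE3. The ratio averaged 1.83 ± 0.0561 in NC and 1.84 ± 0.0428 in HE, and the groups overlapped fully. The median level over the 6 samples was 23.9 RPKM for a large and 14.1 RPKM for a small subunit gene.

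A symbol does not always give a protein's place. In the structure of the mammalian mitochondrial ribosome, the products of Mrps30 and Mrps18a sit in the large subunit, and that of Mrps36 is now known as a part of the 2-oxoglutarate dehydrogenase complex of the citric acid cycle. With genes assigned by structure the medians were 0.27 (50 genes) and 0.29 (25 genes). The 30 large subunit genes of bacterial descent had a median of 0.29 and the 20 classed as found in mitochondria alone 0.25. The latter class holds Mrps18a and, for the small subunit, Mrps18b. Both share an S18 domain with Mrps18c, which was classed as of bacterial descent, so the split is approximate. For the small subunit the medians were 0.27 (15 genes) and 0.32 (10 genes). Of the 45 genes of bacterial descent 41 were above 0, and of the 30 of mitochondrial origin 26. Without HE3 these 4 medians were 0.18, 0.15, 0.18 and 0.18.

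The following 6 Mrpl genes had the smallest p-values of their subunit. Gene positions are those of RefSeq on GRCm38.p6, which has an entry for each of the 78 members. Mrpl42 (chr10:95480805-95501949) encodes a protein found in mitochondria alone. It was at 52.5, 47.9 and 65.9 RPKM in NC1, NC2 and NC3, and at 96.0, 75.3 and 87.8 RPKM in HE1, HE2 and HE3. All HE values lay above all NC values, and HE1, not HE3, was the highest. The log2 fold change was 0.64 (standard error 0.16, adjusted p = 0.195 in limma), and 0.63 without HE3. After a trend on gene length was taken out of each sample, it was 0.44.

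Mrpl20 (chr4:155802878-155808831), a homolog of bacterial L20, a protein that binds early in assembly, was at 30.9, 30.8 and 36.7 RPKM in NC and at 45.8, 41.7 and 67.7 RPKM in HE. The groups did not overlap, and HE3 stood well above HE1 and HE2. Its log2 fold change was 0.63 (standard error 0.19, adjusted p = 0.195 in limma), and 0.42 without HE3. Mrpl13 (chr15:55534095-55557312), a homolog of L13, was at 4.67, 4.50 and 4.80 RPKM in NC and at 6.28, 5.82 and 7.40 RPKM in HE. The NC values were close to each other and every HE value was higher, with a log2 fold change of 0.47 (adjusted p = 0.195 in limma), and 0.37 without HE3.

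Mrpl32 (chr13:14610301-14613037), whose bacterial-type protein must be cut by a mitochondrial protease before it joins the ribosome, carries the NRF1 letters shown above. It was at 23.4, 20.8 and 23.7 RPKM in NC and at 31.4, 27.9 and 29.6 RPKM in HE. The groups did not overlap and HE3 was in the middle of the HE samples. Its log2 fold change was 0.39 with and without HE3 (adjusted p = 0.195 in limma), and 0.22 once the length trend was removed. Mrpl55 (chr11:59202486-59206138), the counterpart of bacterial L31, was at 28.8, 31.4 and 32.0 RPKM in NC and at 39.2, 37.1 and 47.3 RPKM in HE, a log2 fold change of 0.41 (adjusted p = 0.195) and 0.31 without HE3. Mrpl50 (chr4:49512597-49521083), found in mitochondria alone, was at 9.68, 9.79 and 10.2 RPKM in NC and at 13.02, 12.1 and 12.0 RPKM in HE, a log2 fold change of 0.32 (adjusted p = 0.197). In both genes the groups did not overlap, and Mrpl50 was lowest among the HE samples in HE3.

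The 5 Mrps genes with the smallest p-values had log2 fold changes of 0.30 to 0.41. Mrps33 (chr6:39801804-39810936), of mitochondrial origin, was at 29.1, 30.2 and 32.8 RPKM in NC and at 41.3, 36.5 and 37.0 RPKM in HE, a log2 fold change of 0.31 (adjusted p = 0.200). Mrps17 (chr5:129715450-129718712), a homolog of bacterial S17, varied little in NC, at 9.98, 10.1 and 10.1 RPKM, and was at 12.8, 11.9 and 12.5 RPKM in HE, a log2 fold change of 0.30 (adjusted p = 0.203). Mrps5 (chr2:127587426-127603986), a homolog of S5, which lies on the path of the mRNA, was at 10.7, 9.59 and 11.4 RPKM in NC and at 12.9, 12.4 and 14.1 RPKM in HE, a log2 fold change of 0.31 (adjusted p = 0.221). All 3 were higher in every HE sample than in any NC sample, at adjusted p-values of 0.200 to 0.221 in limma.

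Mrps36 (chr13:100735940-100744659), the dehydrogenase component, was at 17.1, 16.8 and 20.1 RPKM in NC and at 25.1, 20.6 and 24.4 RPKM in HE, a log2 fold change of 0.37 (adjusted p = 0.205). Mrps18b (chr17:35910380-35916440) was at 6.94, 4.90 and 5.81 RPKM in NC and at 7.06, 8.31 and 8.07 RPKM in HE, a log2 fold change of 0.41 (adjusted p = 0.226). In Mrps18b the groups were separated by little, since NC1 lay just under HE1. The other members of its family, which share an S18 domain, had other values. Mrps18a was at 20.2, 21.5 and 19.5 RPKM in NC and at 19.9, 20.6 and 24.3 RPKM in HE (log2 fold change 0.08, adjusted p = 0.700; -0.01 without HE3). Mrps18c had 3 to 14 reads per sample, under the filter on low values, and its means were 0.423 ± 0.266 for NC and 0.323 ± 0.134 RPKM for HE. A test of the difference between the 3 genes was not made. The other gene outside the test, Mrpl53, had 0 reads in all 6 samples, and its annotated span overlaps that of Ccdc142.

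Other members with known roles in the ribosome were followed by rule, and numbers in parentheses are log2 fold changes with the adjusted p of limma. Mrpl12, the homolog of the L7/L12 stalk protein that draws translation factors to the ribosome, was at 33.7, 28.7 and 42.9 RPKM in NC and at 40.7, 42.7 and 57.3 RPKM in HE. Its groups overlapped, at a log2 fold change of 0.42 (adjusted p = 0.261) and 0.27 without HE3. Mrpl10, which anchors the stalk, was at 28.6, 24.7 and 29.3 RPKM in NC and at 33.5, 31.4 and 40.5 RPKM in HE, without overlap (log2 fold change 0.35, adjusted p = 0.223; 0.24 without HE3). Mrpl11, at the base of the stalk, was at 15.8, 16.2 and 16.3 RPKM in NC and at 19.8, 18.6 and 22.8 RPKM in HE, also without overlap (0.33, adjusted p = 0.204; 0.25 without HE3).

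Mrpl58, a peptidyl-tRNA hydrolase that frees stalled ribosomes and has become a part of the large subunit, was at 13.4, 14.2 and 14.5 RPKM in NC and at 15.5, 16.9 and 25.2 RPKM in HE. Its log2 fold change of 0.42 (adjusted p = 0.255) was 0.21 without HE3. Mrpl3, whose promoter holds the ETS letters shown above, was at 5.07, 4.91 and 5.60 RPKM in NC and at 5.68, 5.53 and 7.41 RPKM in HE, with overlap (0.24, adjusted p = 0.372; 0.11 without HE3). Mrpl44, which has a domain of the ribonuclease III family, was at 17.1, 16.02 and 17.4 RPKM in NC and at 19.02, 17.9 and 18.7 RPKM in HE, without overlap but at a log2 fold change of 0.13 (adjusted p = 0.424). Mrps12, a homolog of S12 at the decoding centre, was at 34.0, 32.2 and 32.9 RPKM in NC and at 38.6, 34.3 and 43.4 RPKM in HE, without overlap (0.23, adjusted p = 0.292; 0.14 without HE3).

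The members with the lowest fold changes lay slightly below 0. Mrpl24 was at 24.5, 23.1 and 23.5 RPKM in NC and at 25.4, 21.3 and 19.3 RPKM in HE (log2 fold change -0.12, adjusted p = 0.588; -0.03 without HE3). Mrpl45, which is related to an import protein and helps to hold the ribosome at the inner membrane, was at 27.3, 28.3 and 30.6 RPKM in NC and at 29.7, 29.9 and 21.5 RPKM in HE. Its log2 fold change was -0.10 (adjusted p = 0.699) and turned to 0.05 without HE3. Mrpl27, whose bacterial homolog reaches the peptidyl transferase centre, averaged 31.8 ± 2.65 for NC and 31.3 ± 3.90 RPKM for HE (-0.03, with 0.04 under median-of-ratios scaling and -0.12 without HE3).

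Of the Mrps genes, Mrps34 was at 4.67, 4.23 and 4.19 RPKM in NC and at 3.52, 4.22 and 4.67 RPKM in HE (log2 fold change -0.08, adjusted p = 0.756; 0.03 without HE1 and -0.17 without HE3). Mrps6 was at 68.7, 82.4 and 72.8 RPKM in NC and at 64.3, 62.1 and 92.0 RPKM in HE (-0.06, adjusted p = 0.862). It was -0.24 without HE3 and 0.006 under median-of-ratios scaling. The values of these 5 genes overlapped between the groups.

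**Figure D3:**
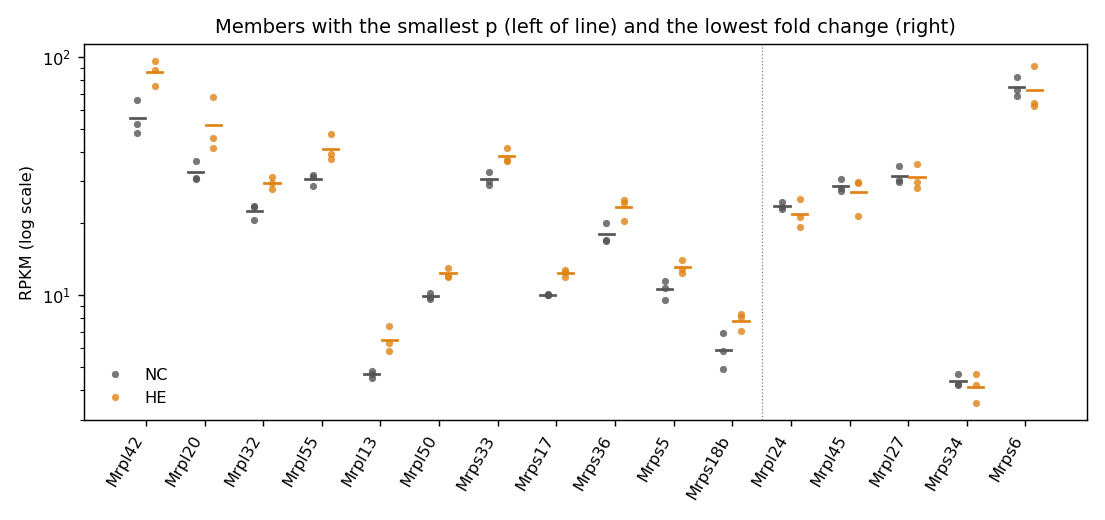
RPKM (log axis) of 16 members in each sample, NC in grey and HE in orange, with horizontal bars at the group means. In the 11 genes left of the dotted line all HE points lie above all NC points, and in the 5 genes right of it they overlap.

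Levels spanned a wide range. Mean RPKM was 80.4-fold higher in the highest tested member than in the lowest, and 45 of the 76 lay between 10 and 50 RPKM. The highest was Mrps21, at 101, 103 and 106 RPKM in NC and at 137, 106 and 133 RPKM in HE, where NC3 and HE2 overlapped (log2 fold change 0.27, adjusted p = 0.274). Next came Mrps16, at 85.9, 91.7 and 93.6 RPKM in NC and at 110, 102 and 152 RPKM in HE, without overlap. Its log2 fold change of 0.40 (adjusted p = 0.236) was 0.23 without HE3 and 0.16 without the length trend. Mrpl54 followed with means of 82.3 ± 3.31 for NC and 81.4 ± 6.50 RPKM for HE (-0.02, adjusted p = 0.928; 0.04 under median-of-ratios scaling).

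At the other end, Mrpl1, a homolog of the L1 stalk protein, averaged 1.38 ± 0.142 for NC and 1.47 ± 0.248 RPKM for HE (log2 fold change 0.07, adjusted p = 0.829; -0.05 without HE3). Mrps30 was at 1.45 ± 0.244 and 1.92 ± 0.291 RPKM (0.38, adjusted p = 0.302) on 36 to 62 reads per sample. Mrpl47, the counterpart of bacterial L29, was at 2.08 ± 0.206 and 2.79 ± 0.484 RPKM, without overlap (0.40, adjusted p = 0.262). Across the 76 members, log2 fold change and log2 mean level had a Pearson correlation of 0.02, given as a description of genes measured in the same 6 libraries. Levels between genes depend on the length listed for each in the table, from 566 to 8631 bases for tested members, whose derivation is not given in the sources used here.

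Longer genes had lower fold changes, most of all in HE3, so the members were set beside genes of like length. With all genes tested in 5 bins of listed length, the median log2 fold change of HE over NC went from 0.04 in the shortest bin to -0.13 in the longest. Relative to NC, HE3 went from 0.02 to -0.31, HE1 from 0.09 to -0.05 and HE2 from 0.04 to -0.03. The members are mostly short, with 45 of 76 in the shortest bin. There they had a median of 0.30 beside 0.04 for all 2792 genes of the bin. In the following bins their medians were 0.31 (10 members), 0.27 (9), 0.27 (6) and 0.15 (6), beside -0.02, -0.07, -0.08 and -0.13 for all genes. The members were thus above the genes of like length in every bin, though the 4 longer bins hold few members. With the length trend removed from each sample before the fit, the members' median was 0.26, 69 of 76 were above 0 and 17 were higher at an unadjusted p under 0.05. Of all genes 50.9% were then above 0 and 9.71% were higher at that p.

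**Figure D4:**
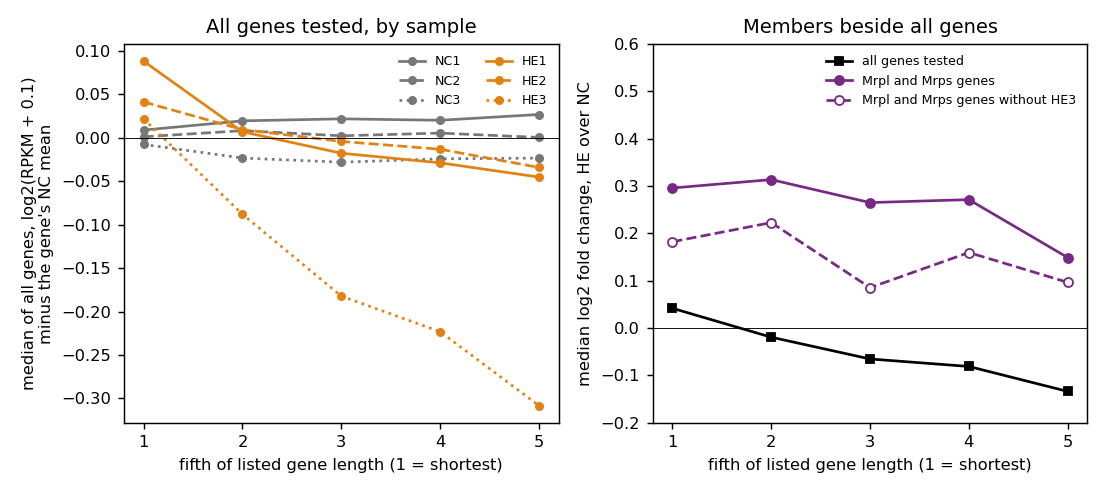
Left, median over all genes tested of log2(RPKM + 0.1) minus the gene's NC mean, in 5 bins of listed gene length, for each sample. HE3 falls from 0.02 to -0.31, HE1 from 0.09 to -0.05 and HE2 from 0.04 to -0.03. The NC samples stay within 0.03 of 0. Right, median log2 fold change of HE over NC in the same bins, for all genes with HE3 included and for the members with and without HE3. Both member lines lie above that of all genes in each bin. Without HE3 the medians of all genes, not drawn, went from 0.05 in the shortest bin to -0.04 in the longest.

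Of the 78 members 20 overlap another protein-coding gene in RefSeq, and although the library was made to keep strand, the counting is not stated to use it, so reads could be shared. This split was made after the values had been seen. The median log2 fold change was 0.17 in the 19 tested genes of this kind and 0.30 in the 57 others. With the length trend removed the medians were 0.22 and 0.29. At an unadjusted p under 0.05, 2 (10.5%) and 23 (40.4%) were higher, against 8.68% of all genes. Among the overlapping genes are Mrpl24, Mrpl27, Mrpl44, Mrps6 and Mrps18a, whose values above may hold reads of Rrnad1, Eme1, Wdfy1, Slc5a3 and Rsph9. Others of this kind had higher log2 fold changes, such as Mrpl18 (0.45), Mrpl2 (0.36) and Mrpl57 (0.36). Members with processed pseudogenes carry a like uncertainty.

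The members lie on 17 chromosomes, 11 of them on chromosome 11 and 8 on chromosome 17. In the promoter windows, the NRF1 motif (2 forms, with C or T at 1 place) stood in 8% of the 75 windows, against 4.56% of the 13969 windows of tested genes and 2.27% of all 32851 windows. CCGGAAGT (ETS) stood in 16% against 7.32% and 3.89%, and AAGATGGCG (YY1) in 10.7% against 2.67% and 1.4%. The YY1 letters were shortened by a G after a first search, in which 5 in place of 8 member windows matched (6.67% against 1.78% and 0.852%). The 6 members with the NRF1 letters are all Mrpl genes: Mrpl9, Mrpl17, Mrpl32, Mrpl39, Mrpl44 and Mrpl45. Their median log2 fold change was 0.21, beside 0.30 for the 61 tested members without. For ETS it was 0.24 in 11 members with and 0.31 in 56 without, and for YY1 0.31 in 8, Mrpl42 among them, and 0.30 in 59. GGGCGG (SP1) was in 52% of members' windows, fewer than the 61.7% of tested genes. CACGTG, the E-box that MYC can bind, was in 9.33% against 9.51%, CCAAT in 40% against 37.1% and TATAAA in 6.67% against 6.92%. The estrogen response element (GGTCA, any 3 bases, TGACC) was in 0 of 75 windows, in 1 of 13969 of tested genes and in 23 of all 32851. At such a rarity the 0 carries no information on the members. The motifs were chosen with the fold changes known, the search took exact letters only, and a match is not a bound site. Motifs found on both strands of a window were counted once, and the SP1 and YY1 letters can overlap with others.

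The other genes of mitochondrial translation give the setting of these values, with log2 fold changes and limma's adjusted p in parentheses. Over all genes tested, 43.8% were above 0, 8.68% were higher at an unadjusted p under 0.05 and 14.8% were higher without overlap. The 5 further proteins of the mitochondrial ribosome that carry other names were all above 0. Their median was 0.25 on the log2 scale, and 0.14 when HE3 was left out. Chchd1, a small subunit protein, was at 90.4, 98.5 and 107 RPKM in NC and at 122, 109 and 144 RPKM in HE (0.33, adjusted p = 0.241 in limma). Ptcd3, a small subunit protein with pentatricopeptide repeats, had 0.32 (adjusted p = 0.290), Aurkaip1 0.25 (adjusted p = 0.272), the GTP-binding Dap3 0.20 (adjusted p = 0.400) and Gadd45gip1, of the large subunit, 0.05 (adjusted p = 0.855; -0.03 without HE3).

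Factors that build the ribosome and work on it were closer to 0 in the main fit, but their genes are longer at the median than the members. With the length trend removed, the median was 0.16 for assembly factors and 0.13 for translation factors, beside 0.26 for the members. Of the 25 assembly factors 20 were above 0, 0 had an unadjusted p under 0.05 and the median was 0.12. They include Eral1, which guides the small subunit rRNA (0.10, adjusted p = 0.638), the rRNA methyltransferases Tfb1m (0.21, adjusted p = 0.556) and Nsun4 (0.12, adjusted p = 0.714; -0.01 without HE3). Of 12 translation factors tested 8 were above 0, 2 were higher at an unadjusted p under 0.05 and the median was 0.05. The elongation factor Gfm1 was at 14.0, 11.6 and 13.7 RPKM in NC and at 15.3, 16.3 and 23.7 RPKM in HE (0.47, adjusted p = 0.228 in limma). Tufm, which brings aminoacyl-tRNA to the ribosome, was at 61.6, 58.8 and 69.9 RPKM in NC and at 68.5, 79.5 and 106 RPKM in HE, with overlap (0.40, adjusted p = 0.250). Its partner Tsfm had 0.30 (adjusted p = 0.373), the recycling factor Mrrf 0.16 (adjusted p = 0.451) and the initiation factor Mtif2 0.05 (adjusted p = 0.872). Without HE3 the log2 fold change was 0.27 for Gfm1, 0.22 for Tufm, 0.09 for Tsfm and 0.06 for Tfb1m.

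Of the 20 mitochondrial aminoacyl-tRNA synthetases, which load tRNAs, 17 were above 0 and 2 had an unadjusted p under 0.05, with a median of 0.17. With the length trend removed 19 were above 0 and the median was 0.25, beside 0.26 for the members. Lars2, the leucine enzyme, was at 3.93, 3.72 and 3.39 RPKM in NC and at 4.45, 4.84 and 3.70 RPKM in HE, with overlap (0.22, adjusted p = 0.405).

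The 18 genes of mitochondrial DNA upkeep and transcription had a median of 0.08, with 11 above 0 and 1 at an unadjusted p under 0.05. Tfam, which packs mitochondrial DNA, was at 6.23, 6.32 and 5.73 RPKM in NC and at 6.57, 6.46 and 8.04 RPKM in HE, without overlap (0.20, adjusted p = 0.406), and the RNA polymerase Polrmt had a log2 fold change of 0.006 (adjusted p = 0.984; -0.07 without HE3). The 7 tested of 13 mitochondrially encoded genes had a median of 0.18, with 5 above 0 and 2 at an unadjusted p under 0.05. With the length trend removed their median was 0.07. All 13 together held only 0.027% to 0.033% of reads in NC and 0.034% to 0.053% in HE. These values are therefore a weak measure of mitochondrial RNA.

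Protein import and chaperone genes, through which the members' products enter, had values like those of the members. Of 23 tested 20 were above 0 and 8 were higher at an unadjusted p under 0.05 (34.8%, against 8.68% of all genes). Their median was 0.26, and 0.13 without HE3. Hspd1, the mitochondrial chaperonin, named here after its values were seen, was at 69.5, 66.8 and 88.6 RPKM in NC and at 103, 102 and 126 RPKM in HE, without overlap (0.56, adjusted p = 0.195 in limma). The 77 tested cytosolic ribosomal protein genes, of the ribosome outside mitochondria, had a median of 0.29, and of 0.24 without HE3. Of these 76 were above 0, and 38 were higher in HE without overlap (49.4%, against 14.8% of all genes). The controls were spread widely here. Relative to each gene's NC mean the median was 0.002 in NC1, -0.17 in NC2 and 0.17 in NC3. It was 0.29 in HE1, 0.19 in HE2 and 0.38 in HE3. NC2 was the lowest of the 6 samples in 66 of the 77 genes, and in 2588 of all 13952. At an unadjusted p under 0.05, 6 were higher (7.79%, against 8.68% of all genes). The share of reads of all 82 cytosolic ribosomal protein genes, tested or not, was 6.11% ± 0.713 in NC and 7.40% ± 0.494 in HE (SD, n = 3 samples each).

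The 11 regulators of mitochondrial biogenesis had a median of 0.03, with 6 above 0 and 0 at an unadjusted p under 0.05. Nrf1 was at 8.34, 7.92 and 8.08 RPKM in NC and at 8.27, 8.66 and 8.57 RPKM in HE (0.07, adjusted p = 0.720), and Gabpa at 10.5, 10.4 and 10.7 RPKM in NC, and at 11.4, 11.7 and 9.77 RPKM in HE (0.05, adjusted p = 0.821; -0.002 without HE2). The coactivator Ppargc1a was at 2.12, 1.57 and 2.58 RPKM in NC and at 2.77, 2.48 and 3.48 RPKM in HE, with overlap (0.47, adjusted p = 0.273). Myc had 0.24 (adjusted p = 0.431) and Esrra 0.12 (adjusted p = 0.646; -0.05 without HE3). Among those below 0 were Yy1, at 25.3, 25.8 and 26.3 RPKM in NC and at 21.3, 26.8 and 11.6 RPKM in HE (-0.46, adjusted p = 0.355; -0.11 without HE3), Pprc1 (-0.34, adjusted p = 0.346) and Mycn (-0.26, adjusted p = 0.630), all named after their values were seen. No regulator of this list had groups that did not overlap.

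**Figure D5:**
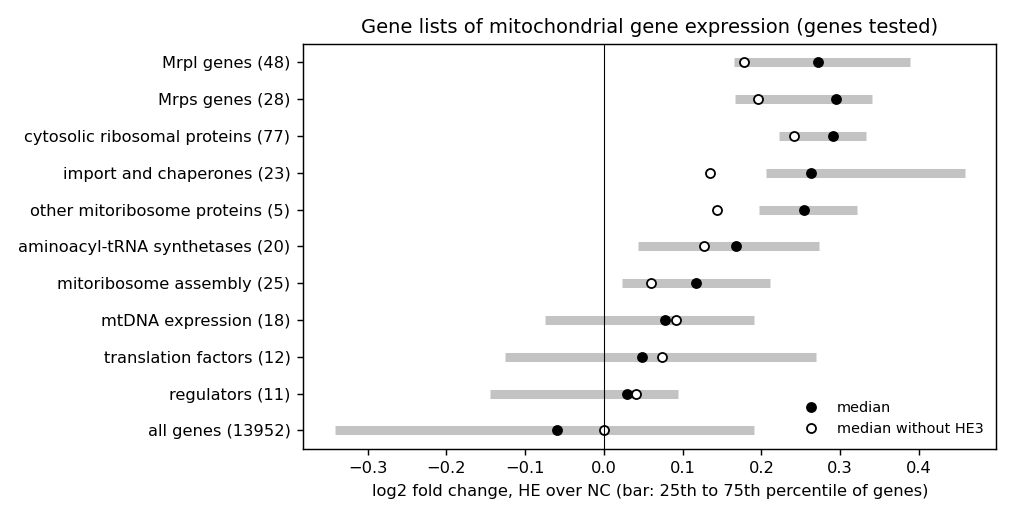
Median log2 fold change of HE over NC (filled circles), median without HE3 (open circles) and the 25th to 75th percentile of genes (grey bars) for each list, with the number of genes tested. The Mrpl and Mrps genes, the cytosolic ribosomal proteins, the import genes and the other mitoribosome proteins have medians between 0.25 and 0.30, and the remaining lists plotted lie between 0.03 and 0.17, above all genes at -0.06. The length trend is not removed from these values.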

How the data were processed

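Neurosphere RNA of 3 HE and 3 NC samples was sequenced, and the authors filtered the reads, aligned them with TopHat2 to mm10 (CASAVA 1.7 is also listed in the submitters' processing notes) and counted reads per gene. The library was strand-specific. The counting tool, annotation and use of strand in counting are not given in the sources used here, and the sources name different sequencers. The table deposited by the authors holds RPKM and raw read counts for 22048 genes. The RPKM equalled the count divided by listed length and library total to within 4.99e-07. In 18.8% of cells the count is written with commas, which were removed. The count columns were recorded under another unit, and the count test the study used (DESeq2) was not run. The counts themselves entered the filter, voom and median-of-ratios scaling. Symbols were found for 21781 gene IDs.

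From these values limma 3.58.1 (R 4.3.3) was fitted with a mean-variance trend to log2(RPKM + 0.1), group being the only term. A fold change is on that scale, which understates changes of low genes. Genes with the equivalent of 10 reads per median library in at least 3 samples, and 15 reads in all, were tested (13952). Samples held 16078675 to 19137059 reads on genes, and 1 read on a gene of 1 kilobase equals 0.0523 to 0.0622 RPKM. Members had 36 to 2310 reads per sample (median 767). The labels give no batch. The fit was tested on simulated counts with the same spread in every sample, no length trend and no library set apart. That test does not cover a library such as HE3.

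Genes named are the 6 Mrpl and 5 Mrps genes with the smallest p-values, the 3 and 2 with the lowest fold changes, the 3 highest and lowest levels, members outside the filter, and fixed role genes. Mrpl46, Mrps11, Hspd1, Yy1, Pprc1 and Mycn were added after their values were seen. So were the individual markers of cell types and the genes named for a motif or an overlap. Members and lists were chosen with earlier results of these data known. The alternatives were a pseudocount of 1, median-of-ratios scaling, other filters, voom on counts, sample weights, removal of the length trend, the replicate number as a block and each sample left out. The count of non-overlapping groups without HE3 and the longer YY1 letters were added after seeing the data.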

Additional observations from a re-analysis of the deposited data

How the results depend on the processing

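Over 15 settings, the main one included, 0 members passed the threshold, and 0 had an adjusted p under 0.05. Between 66 and 73 of the 76 members lay above 0 in the settings with that set of members. Over all genes, limma called 0 apart from 268 with sample weights, where HE3 had a weight of 0.158, and 103 without NC3. Leaving out one sample at a time gave 0 to 103 calls. The count of members higher at an unadjusted p under 0.05 was 25, and 6 to 27 with a sample left out, with the lowest values without NC1 (6) and NC2 (9), where all genes also had fewer (4.39% and 4.78% higher). With sample weights the median fell from 0.29 to 0.17 over all members and from 0.27 to 0.17 over the Mrpl genes, and was 0.18 over the Mrps genes. With a sample left out, the Mrps median ranged from 0.20 (without HE3) to 0.34. The cause of these moves was not tested.

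The samples share replicate numbers, and the deviations of same-numbered samples from their group means correlated at 0.156, 0.0869 and 0.0603 across genes. Every sample correlated best with its own number, which is a hint from the data only, and nothing in the labels pairs them. With the replicate block, 0 genes were called and 23 members were higher at an unadjusted p under 0.05, as were 8.75% of all genes.

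The sign of some named genes near 0 turned. Under median-of-ratios scaling the log2 fold change was for Mrpl27 at 0.036, Mrpl54 at 0.043 and Mrps6 at 0.0063. With sample weights it was for Esrra at -0.017, Mrpl1 at -0.015, Mrpl45 at 0.053, Mrpl54 at 0.042, Nsun4 at -0.015, Polrmt at -0.048 and Tfb1m at -0.021. With each sample left out in turn, the ranges were -0.046 to 0.23 for Esrra, -0.0017 to 0.13 for Gabpa, -0.029 to 0.18 for Gadd45gip1, -0.052 to 0.15 for Mrpl1, -0.12 to 0.043 for Mrpl27, -0.18 to 0.055 for Mrpl45, -0.070 to 0.045 for Mrpl54, -0.0091 to 0.13 for Mrps18a, -0.17 to 0.025 for Mrps34, -0.24 to 0.047 for Mrps6, -0.043 to 0.17 for Mtif2, -0.013 to 0.24 for Nsun4 and -0.12 to 0.13 for Polrmt.

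HE3 has the fewest reads and the strongest length trend. The members' median SD between replicates on the log2 scale was 0.0962 in NC and 0.182 in HE, and a call also needed a log2 fold change of 1, above the value of any member.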
